A study of Mus musculus with 8 samples.

Results

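The miR-26 and miR-101 microRNAs (miRNAs) are short RNAs that lower the output of their target messenger RNAs, and both families are known to act on Ezh2. Ezh2 is the catalytic subunit of the Polycomb repressive complex that methylates histones and silences genes. In the neural lineage it is known to be abundant in stem cells and oligodendrocyte precursors and to favour the oligodendrocyte fate. Binding is led by the seed, the run of bases near the 5′ end of the miRNA. The members were the 4 mature mouse miRNAs named mmu-miR-26a, mmu-miR-26b, mmu-miR-101a and mmu-miR-101b on the array, taken by exact name without star strands, out of 650 miRNAs with non-control probes. Each had 2 probes, so that 8 of 1857 probes and 80 of 13000 non-control spots belonged to them, and all 4 were among the 199 mouse miRNAs tested.

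The cells were primary mouse oligodendrocytes, the myelin-forming cells of the brain, of strain C57BL/6J. All groups carried CNP-Cre, a Cre recombinase driven by the promoter of an oligodendrocyte lineage gene, so no group lacked it, and no other allele or treatment is named in the labels. Arrays covered day 0 (n = 3) and day 1 (n = 2) in culture, both labelled immature, and day 6 (n = 3), labelled mature. The cells had been shaken off and plated with B27, horse serum and thyroid hormones. The series text calls the samples independent without naming animals or litters as their source, so the spread behind each p-value is that between these samples and may be technical. The series text counts the immature days from another start than the sample labels, and the days of the labels are used.

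The sequences are shown because the members differ by very few bases, which bears on what each probe can tell apart. They are from RefSeq (build GRCm38.p6), in which all 4 were found under the arm names miR-26a-5p, miR-26b-5p, miR-101a-3p and miR-101b-3p. Capitals mark the seed, bases 2 to 8 from the 5′ end.
miR-26a: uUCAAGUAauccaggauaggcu
miR-26b: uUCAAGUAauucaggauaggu
miR-101a: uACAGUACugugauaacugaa
miR-101b: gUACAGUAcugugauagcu
miR-26a and miR-26b had the same seed, UCAAGUA, and no other mature miRNA of the RefSeq table had it. Counted from the 5′ end of miR-26a, they differed by C11U and C21U among 21 aligned bases, and miR-26b was shorter, at 21 against 22 bases. miR-101a and miR-101b had 17 of 18 aligned bases in common and differed by A16G, counted from the 5′ end of miR-101a. The RefSeq miR-101b began 1 base earlier, so that its seed read UACAGUA against ACAGUAC for miR-101a. The probes' own sequences were not used here, so which form of miR-101b they match was not tested.

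The precursors are shown because miR-26a is made from 2 loci with identical mature sequence, which no probe can separate. Capitals mark the mature miRNA within each hairpin.
Mir26a-1: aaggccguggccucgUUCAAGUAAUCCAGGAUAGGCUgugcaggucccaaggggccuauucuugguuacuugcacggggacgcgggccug
Mir26a-2: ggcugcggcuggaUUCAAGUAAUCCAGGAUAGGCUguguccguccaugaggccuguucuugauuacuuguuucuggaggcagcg
Mir26b: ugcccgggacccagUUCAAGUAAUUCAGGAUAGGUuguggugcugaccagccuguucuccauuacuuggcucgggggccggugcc
Mir101a: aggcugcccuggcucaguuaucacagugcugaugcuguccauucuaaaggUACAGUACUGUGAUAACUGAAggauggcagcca
Mir101b: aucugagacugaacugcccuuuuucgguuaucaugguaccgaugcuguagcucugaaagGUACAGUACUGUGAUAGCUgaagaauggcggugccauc
In GRCm38.p6, Mir26a-1 (chr9:119031796-119031885, plus strand) lay within the span of Ctdspl, Mir26a-2 (chr10:126995530-126995613, plus strand) within Ctdsp2 and Mir26b (chr1:74394310-74394394, plus strand) within Ctdsp1. These 3 host genes encode small phosphatases of the RNA polymerase II C-terminal domain. Mir101a (chr4:101346945-101347027, minus strand) lay within the span of E130102H24Rik, and Mir101b (chr19:29135279-29135375, plus strand) within Rcl1. The Mir101b hairpin went on with the letters gaa after its annotated mature end, the same letters with which the mature miR-101a ended.

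Levels below are log2 signals of the brighter probe of each miRNA after each array was divided by the 75th percentile of the 91 probes detected on all arrays. Detection of a probe meant that the scanner software had marked a share of 0.5 or more of its spots as well above background. Day 0 replicate 1 stood apart: its negative control spots had a spread (scaled median absolute deviation) of 30.2 intensity units against 2.54 to 3.88 on the other arrays. It had 61 detected mouse miRNAs against 150 to 218, and no probe below a log2 signal of 7.65 was detected on it. The oligodendrocyte markers miR-219, miR-338-3p and miR-138 were all detected on each day 6 array. All 3 were also detected on day 0 replicates 2 and 3 and on day 1 replicate 1. On day 0 replicate 1, 0 of the 3 were detected, and on day 1 replicate 2, 1 of the 3. Neuron, astrocyte and microglia or leukocyte markers were also detected on every array. Fibroblast and mural cell markers were detected on 7 of 8 arrays, with 4 of 5 on day 6 replicates 1 and 2, and erythroid markers on 0 of 8.

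miR-26a was well above background on all 8 arrays and lay lower in mature than in immature cells on average, by a difference that did not pass the test. Its log2 signals were 9.85, 10.28 and 10.27 on day 0, then 10.05 and 9.93 on day 1, then 9.68, 9.35 and 9.89 on day 6. All 3 day 6 arrays were below 4 of the 5 immature arrays, and the groups overlapped through day 6 replicate 3 and day 0 replicate 1 alone. The means were 10.14 ± 0.24 (SD, n = 3) on day 0, 9.99 ± 0.08 (n = 2) on day 1 and 9.64 ± 0.27 (n = 3) on day 6. Day 0 and day 1 differed by less than the spread within day 0. With the scaling kept and day 0 replicate 1 left out, the day 0 mean was 10.28 ± 0.007 (SD, n = 2). With the other arrays scaled anew without it, day 0 replicates 2 and 3 had 10.09 and 10.36, so the close match of these arrays depended on the scaling.

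In limma's model over all 199 miRNAs, miR-26a had a log2 fold of -0.42 ± 0.22 SE in day 6 against immature cells (95% interval -0.94 to 0.09, limma adjusted p = 0.492). This was the 31st fold from the lowest of 199, where the median of all miRNAs was 0.04. Scaling to bright control probes turned the fold to 0.12, but moved the median of all miRNAs to 0.55, so that relative to this median miR-26a had -0.43 there and -0.46 as reported. Its dimmer probe had a fold of -0.40.

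miR-26b, which shares the seed of miR-26a, was also detected on all 8 arrays and varied little. Its log2 signals were 8.33, 8.51 and 8.37 at day 0, 8.40 and 8.26 at day 1, then 8.32, 7.97 and 8.23 at day 6. Day 6 replicate 2 was the lowest array and the other day 6 arrays lay at or near the immature range. The means were 8.40 ± 0.09 (SD, n = 3) on day 0, 8.33 ± 0.10 (n = 2) on day 1 and 8.17 ± 0.19 (n = 3) on day 6. The log2 fold of day 6 against immature cells was -0.19 ± 0.20 SE (95% interval -0.64 to 0.26, limma adjusted p = 0.818). It was 0.35 with scaling to control probes, which is -0.20 relative to the median of all miRNAs there, against -0.23 as reported. Its dimmer probe had a fold of -0.15.

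miR-101a, of the family known from human cancer cells to restrain Ezh2, was detected on 7 of 8 arrays. Its log2 signals were 5.65, 7.47 and 7.18 at day 0, 7.07 and 6.28 at day 1, then 7.04, 6.28 and 7.24 on day 6. The value of 5.65 belongs to day 0 replicate 1, where none of its spots was well above background, and the 7.47 of day 0 replicate 2 would itself have been under the lowest detected probe of that array. Among the detected values, day 1 replicate 2 and day 6 replicate 2 were low and the other arrays lay close together, so that days overlapped. The means were 6.76 ± 0.98 (SD, n = 3) on day 0, 6.67 ± 0.56 (n = 2) on day 1 and 6.86 ± 0.51 (n = 3) on day 6. The log2 fold of day 6 against immature cells was 0.14 ± 0.46 SE (95% interval -0.93 to 1.20, limma adjusted p = 0.894), and -0.04 without day 0 replicate 1 (adjusted p = 0.928).

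miR-101b, the paralog of miR-101a, followed the same arrays. Its log2 signals were 4.66, 7.27 and 6.96 at day 0, 7.01 and 6.24 at day 1, then 6.54, 6.04 and 6.57 on day 6. Again the 4.66 of day 0 replicate 1 was not well above background. Of the detected immature arrays, 3 stood above every day 6 array and day 1 replicate 2 lay among them. The means were 6.30 ± 1.43 (SD, n = 3) on day 0, 6.63 ± 0.54 (n = 2) on day 1 and 6.38 ± 0.30 (n = 3) on day 6. The log2 fold of day 6 against immature cells was -0.08 ± 0.58 SE (95% interval -1.41 to 1.25, limma adjusted p = 0.953). It was -0.39 without day 0 replicate 1 (adjusted p = 0.344) and 0.47 with scaling to control probes. Relative to the median of all miRNAs it was -0.085 with that scaling and -0.12 as reported.

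**Figure D1:**
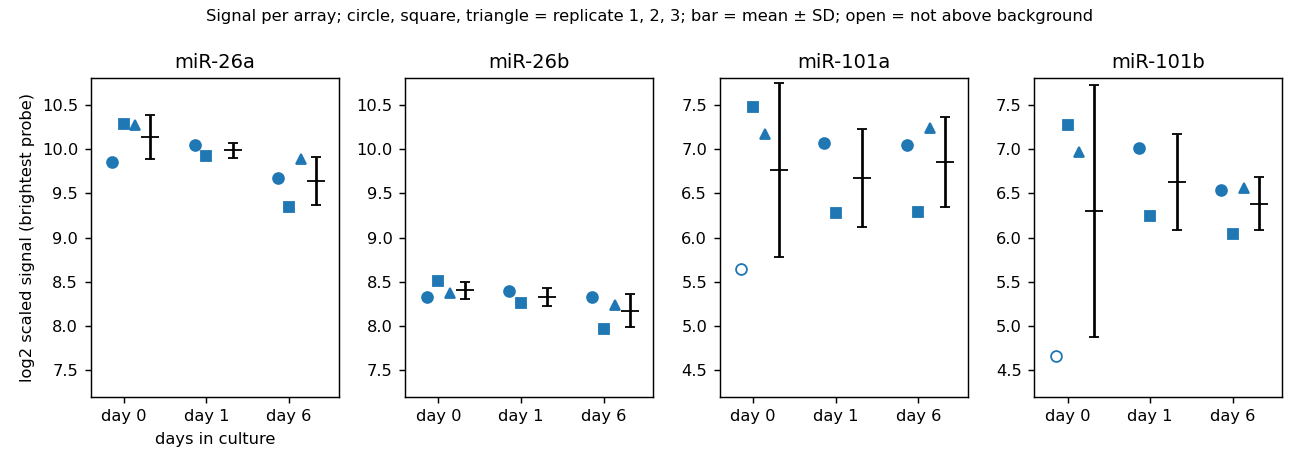
Log2 scaled signal (y axis) of the brighter probe of each member on every array by day in culture (x axis), with replicates as circle, square and triangle and the mean ± SD as a bar. The means of miR-26a were 10.14, 9.99 and 9.64 on days 0, 1 and 6, and the open points of miR-101a and miR-101b are the undetected values of day 0 replicate 1.

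Over the 4 members, limma called 0 of 4 in day 6 against immature cells, where 2.01% of the 199 miRNAs were called, and 0 of 4 had an unadjusted p under 0.05. Over all miRNAs there, 24 of 199 had an unadjusted p under 0.05. In the histogram of folds, miR-26b, miR-101b and miR-101a lay between the 25th and the 75th percentile of all miRNAs, -0.23 to 0.29, and miR-26a lay below it.

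**Figure D2:**
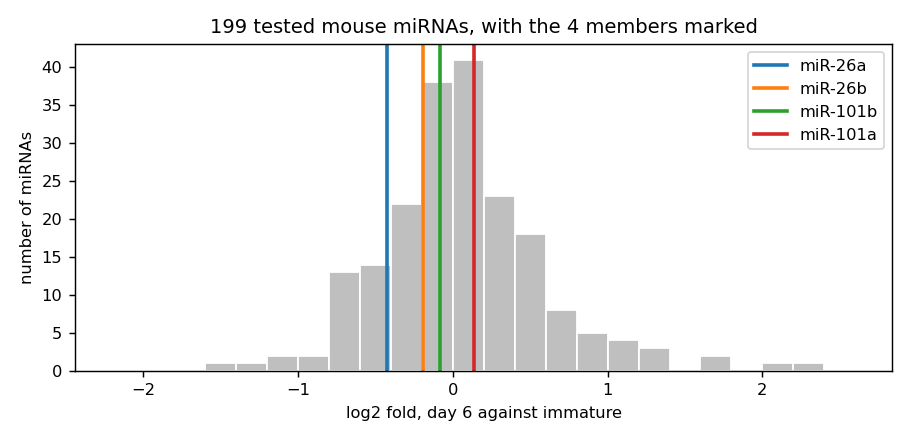
Number of tested miRNAs (y axis) by log2 fold of day 6 against immature cells (x axis), with a line for each member. miR-26a, at -0.42, lies left of the middle of the distribution, and miR-26b, miR-101b and miR-101a follow at -0.19, -0.08 and 0.14.

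Against day 0 alone, limma called 0 of 4 members on day 6 (0 of 4 at an unadjusted p under 0.05, against 27 of 199 miRNAs), with 4.02% of all miRNAs called. The log2 fold was -0.50 ± 0.25 SE for miR-26a (adjusted p = 0.421), -0.23 ± 0.22 SE for miR-26b (adjusted p = 0.617), 0.09 ± 0.51 SE for miR-101a (adjusted p = 0.962) and 0.08 ± 0.64 SE for miR-101b (adjusted p = 0.963). Without day 0 replicate 1, on which the miR-101 miRNAs were undetected, the fold of miR-101b was -0.60 ± 0.26 SE (limma adjusted p = 0.221) and that of miR-101a -0.34 ± 0.33 SE (adjusted p = 0.611). That of miR-26a was then -0.51 ± 0.21 SE (limma adjusted p = 0.206), the only member with an unadjusted p under 0.05. How many of all miRNAs had such a p in this fit was not counted, so it does not single out miR-26a. In that fit 0 of 4 members were called, with 5.03% of all miRNAs called, and in day 6 against immature cells without that array 0 of 4, with 4.02%. In the fit without that array, miR-26a reached at most 9.94 on day 6 and was between 9.98 and 10.36 on the immature arrays. The share of all miRNAs whose groups lay apart in that fit was not counted, so these ranges do not set miR-26a apart.

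Between day 6 and day 1, limma called 0 of 4 members and 0% of all miRNAs, with 17 of 199 miRNAs and 0 of 4 members at an unadjusted p under 0.05. Between day 1 and day 0, it called 0 of 4 members and 1.51% of all miRNAs, and 0 of 4 members had an unadjusted p under 0.05, against 16 of 199 miRNAs. In both comparisons miR-26a was the member with the smallest p, at a log2 fold of -0.35 ± 0.28 SE (adjusted p = 0.860) and -0.15 ± 0.28 SE (adjusted p = 0.975), in limma's model. Between day 1 and day 0 this order rested on day 0 replicate 1. Without that array miR-101a had a log2 fold of -0.60 ± 0.36 SE (limma adjusted p = 0.553) and miR-101b -0.44 ± 0.29 SE (adjusted p = 0.573), against 0.33 with it, both with a smaller p than miR-26a, at -0.24 ± 0.23 SE (adjusted p = 0.724). The comparisons share arrays and are not independent of each other.

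The ratio of paralogs within an array does not depend on a scaling factor while both are above the floor, and its change over days shows unequal change only. The log2 ratio of miR-26a over miR-26b was 1.53, 1.77 and 1.90 at day 0, 1.65 and 1.67 at day 1, then 1.36, 1.38 and 1.65 on day 6. Day 6 replicates 1 and 2 were below every immature array, while replicate 3 lay within the immature range. The mean was 1.46 ± 0.17 (SD, n = 3) in mature and 1.70 ± 0.14 (n = 5) in immature cells, a difference of -0.24. The difference did not pass an exact two-sided permutation test over 56 splits (p = 0.107, and 0.214 adjusted over the 2 ratios tested).

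The log2 ratio of miR-101a over miR-101b was 0.98, 0.20 and 0.21 at day 0, 0.06 and 0.04 at day 1, then 0.50, 0.25 and 0.68 on day 6. Apart from day 0 replicate 1, where neither miRNA was detected, each day 6 array stood above each immature array. Over all 8 arrays the difference of day 6 from immature cells was 0.18 (exact two-sided permutation p = 0.5, adjusted p = 0.5 over both ratios). Without day 0 replicate 1 it was 0.35, with an exact p of 0.0286, the smallest that 35 splits can give, and an adjusted p of 0.0571. With another background correction, normexp, the difference was 0.15 over all 8 arrays (exact permutation p = 0.161), and 0.19 without day 0 replicate 1 (exact permutation p = 0.114). Members of such similar sequence can share signal on a probe, and this was not tested.

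**Figure D3:**
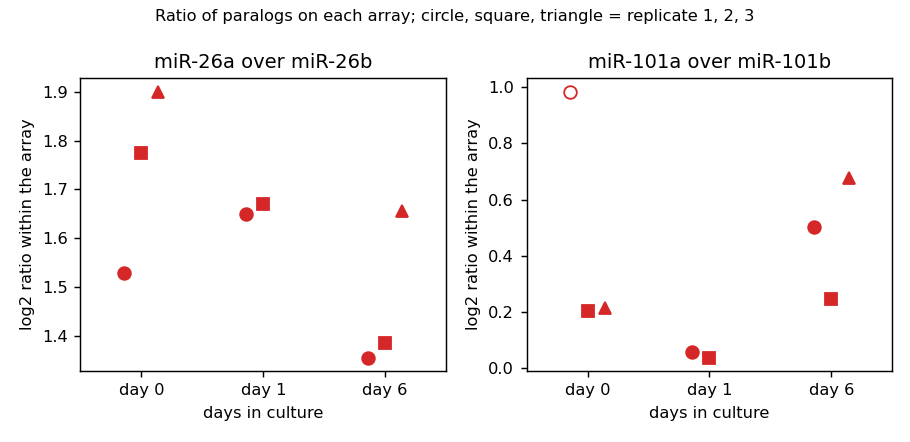
Log2 ratio of the 2 paralogs within each array (y axis) by day in culture (x axis), with replicates as circle, square and triangle and an open point where a miRNA was not detected. The miR-26a over miR-26b ratio of day 6 reaches from 1.36 to 1.65, and the miR-101a over miR-101b ratio of day 6 from 0.25 to 0.68, above the 0.04 to 0.21 of the 4 immature arrays with detected signal.

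Both probes of each member moved together across arrays, with Pearson's r from 0.982 to 0.998 over the 7 arrays other than day 0 replicate 1. On those 7 arrays, the gap between the brighter and the dimmer probe ranged from 0.38 to 0.44 log2 units for miR-26a, from 0.32 to 0.41 for miR-26b, from 0.10 to 0.22 for miR-101a and from 1.14 to 1.37 for miR-101b. For every member the range of this gap was narrower than the difference between the 2 day 1 arrays. Within a probe, the spots of an array had a median coefficient of variation of 6.68% for the miR-26 probes and 6.32% for the miR-101 probes on those 7 arrays.

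Likeness across arrays was measured by Pearson's r of the log2 signals. Among the 50 other miRNAs detected on all 8 arrays, those most like miR-26a were miR-20b, miR-20a and miR-19b, of the miR-17 cluster family that the series title names, with r of 0.930, 0.916 and 0.892 over 8 arrays and 0.938, 0.929 and 0.934 over the 7 without day 0 replicate 1. The median r of the 50 with miR-26a was -0.03. For miR-26b they were miR-16 (r = 0.933), miR-20b (0.797) and miR-20a (0.775). For miR-101a they were miR-15a (r = 0.950), miR-181a (0.892) and miR-106b (0.830), with 0.926, 0.937 and 0.786 over the 7 arrays on which miR-101a was detected. For miR-101b they were miR-106b (r = 0.832), miR-15a (0.819) and miR-181a (0.782), with 0.926, 0.718 and 0.915 over those 7 arrays. All these points share the same 8 arrays and their scaling, and the values describe these arrays only. Over those 7 arrays, r was 0.882 for miR-26a with miR-26b and 0.871 for miR-101a with miR-101b. Across the families it was 0.907 for miR-26b with miR-101b, 0.862 for miR-26a with miR-101b, 0.766 for miR-26b with miR-101a and 0.673 for miR-26a with miR-101a, so that pairs of a family were not always the closest.

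The oligodendrocyte marker miR-338-3p, which is known to promote differentiation of these cells, differed widely between arrays of a day. It had log2 signals of 7.04, 11.53 and 8.64 at day 0, 11.16 and 7.66 at day 1, then 11.22, 9.54 and 10.92 at day 6, and was not well above background on day 0 replicate 1. It was lower on day 1 replicate 2 and day 6 replicate 2 than on the other arrays of those days, as were all 4 members. The signals of the 3 oligodendrocyte markers were summed on the linear scale and put in log2. This sum ranged from 7.39 to 11.75 on day 0, from 7.91 to 11.29 on day 1 and from 9.75 to 11.33 on day 6. The 7.39 was day 0 replicate 1, where 0 of the 3 were detected. Formed in the same way, the sum of the 5 microglia and leukocyte markers ranged from 10.28 to 11.39 over the 8 arrays, with miR-223 of myeloid cells detected on all 8 arrays. The sum of the 5 fibroblast and mural markers ranged from 6.98 to 8.01 on day 0, from 7.14 to 7.27 on day 1 and from 6.96 to 8.79 on day 6. The 8.01 was day 0 replicate 1, where 0 of the 5 were detected, and the other day 0 arrays had 7.09 and 6.98. In day 6 against immature cells, limma called 0 of the 2 astrocyte markers (log2 folds 0.29 and 0.72). It called 0 of the 3 fibroblast and mural markers tested (median log2 fold 0.80), which rests in part on undetected values. On day 6 replicate 3, 1 of the 5 fibroblast and mural markers was detected, and their sum of 6.96 was below that of every immature array. In such bulk samples fewer cells of a type and less RNA per cell cannot be told apart, and the part of cell makeup in the levels of the members was not tested.

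Of 17 other miRNAs reported to act on Ezh2 in other cells, 13 were tested, and limma called 0 higher and 0 lower in each of the 4 comparisons. In day 6 against immature cells their median log2 fold was 0.03, against 0.04 for all 199 miRNAs, with 7 folds above 0 and 6 below. The 3 with the smallest p were let-7e, a let-7 miRNA (log2 fold 0.41 ± 0.20 SE, limma adjusted p = 0.474), miR-25, of the miR-106b cluster (-0.47 ± 0.27 SE, adjusted p = 0.526), and miR-138, known to promote early oligodendrocyte differentiation (0.91 ± 0.83 SE, adjusted p = 0.793). let-7e had log2 signals of 7.53, 7.33 and 7.22 at day 0, then 7.43 and 7.71 at day 1, then 7.97, 7.97 and 7.70 at day 6, and was not well above background on day 0 replicate 1. miR-137, miR-214, miR-144 and miR-217 were detected on too few arrays to be tested.

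The plot of folds by setting shows how far the direction of each member depended on the processing. Some settings changed only the test or the set of miRNAs tested and left the folds as reported, so counts of settings overstate how firm a direction is. miR-26a was below 0 in 27 of 28 other settings and miR-26b likewise, the exception for both being the scaling to control probes, while miR-101a had the other sign in 4 of 27 settings and miR-101b in 6 of 27. Of these, the sign of miR-101a without scaling and of miR-101b with control probes went with a shift of all miRNAs, whose medians were -0.28 and 0.55 there. Relative to those medians miR-101a had 0.080 and miR-101b -0.085, the direction they had as reported.

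**Figure D4:**
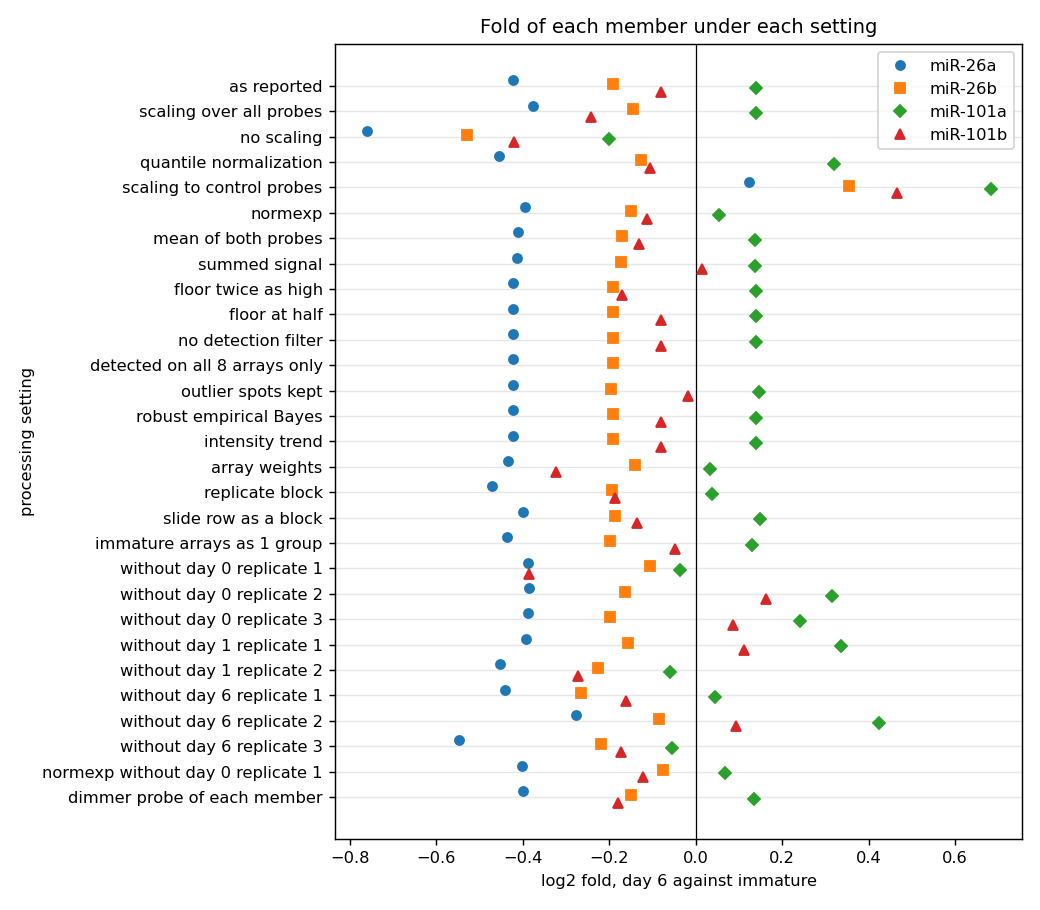
Log2 fold of day 6 against immature cells (x axis) for each member under each processing setting (y axis), the top line being the values as reported. The folds of miR-26a reach from -0.76 without scaling to 0.12 with scaling to control probes, and those of miR-101a from -0.20 to 0.68 in the same settings.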

How the data were processed

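Total RNA of 8 samples was labelled with Cy3 and hybridised to 8 Agilent miRNA arrays. All were on 1 slide and scanned on 1 date, so neither could act as a batch between days. Per the file headers, the deposited values are spot intensities that Agilent Feature Extraction 9.5 had background-subtracted and detrended, on a linear scale without scaling between arrays. The deposited series-wide values were the same intensities (largest difference 0). Spots flagged as outliers were left out, the spots of a probe averaged, and arrays scaled as described above. A floor was set at the 5th percentile of detected signals (18.4, which is 4.20 in log2). A miRNA took its brightest probe and was tested if detected on at least 3 arrays; 412 of 611 mouse miRNAs were not. A limma model with 1 mean per day and empirical Bayes moderation gave two-sided tests. Benjamini-Hochberg adjustment covered all 199 tested miRNAs, and those with adjusted p below 0.05 count as called. Immature cells were the mean of day 0 and day 1. Fits were tested on simulated data with the same spread for every miRNA and array and with changes larger than the fold of any member. This does not show whether changes as small as those of the members could be found, or how an array such as day 0 replicate 1 acts. R 4.3, limma 3.58, the data.table package (version 1.17), Python 3.11 and matplotlib 3.10 were used. No spot was saturated (0 on each array), and the number of arrays limits the precision. Named miRNAs were the members, the 3 most correlated with each and the 3 smallest p of the Ezh2 list; the marker miR-338-3p and miR-223 were chosen after their values were seen. Members and lists were chosen with earlier results of these data known.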

Additional observations from a re-analysis of the deposited data

Results flagged for a closer look

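The log2 ratio of miR-101a over miR-101b on day 0 replicate 1, 0.98, lay far from the 0.04 to 0.21 of the other 4 immature arrays: its gap took a share of 0.815 of the range of the 5 values, above Dixon's critical value of 0.710. Neither miRNA was well above background on that array. Chance alone is known to mark about 5% of such groups, and 6 were looked at.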

How the results depend on the processing

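No member that could be tested was called (0) in any comparison under 28 other settings; miR-101a and miR-101b could not be tested with only miRNAs detected on all 8 arrays. Meanwhile the calls among all miRNAs ranged from 0 to 23 in day 6 against immature cells, from 1 to 35 against day 0, from 0 to 9 against day 1 and from 1 to 5 between day 1 and day 0. Of the log2 folds, 243 kept their sign and side of the threshold and 33 changed sign; the causes were not tested. With scaling to control probes, folds against immature cells were 0.12 (miR-26a), 0.35 (miR-26b) and 0.47 (miR-101b), against day 0 0.015 (miR-26a) and 0.28 (miR-26b), and against day 1 0.23 (miR-26a). With scaling over all probes they were 0.13 for miR-26b against day 0 and 0.48 for miR-26a between day 1 and day 0, and the difference in the miR-101 ratio was 0.37 (exact permutation p = 0.0179). Without scaling, miR-101a had -0.20 against immature cells and -0.38 against day 0, and miR-101b -0.39 against day 0. In day 6 against day 0, miR-101a and miR-101b had -0.055 and -0.13 with normexp, -0.079 and -0.20 with normexp without day 0 replicate 1, and -0.23 and -0.48 with array weights. There miR-101b also had -0.097 with a doubled floor, -0.042 with the mean of both probes and -0.17 with the dimmer probe; its summed signal gave 0.014 against immature cells. Quantile normalization gave differences of -0.34 for the miR-26 ratio (exact permutation p = 0.0357) and 0.42 for the miR-101 ratio (p = 0.0179), and the dimmer probe 0.30 for the latter (exact permutation p = 0.0179). These 3 values of the miR-101 ratio include day 0 replicate 1, where neither miRNA was detected. For the dimmer probe, the floor set the miR-101b value there. A scaling factor leaves this ratio unchanged above the floor, so the 0.37 with scaling over all probes also came about through the floor. Whether the floor acted with quantile normalization was not tested. Leaving out each array gave, against immature cells, -0.55 to -0.28 for miR-26a and -0.27 to -0.086 for miR-26b, and -0.47 to -0.20 for miR-26a against day 1, each nearest 0 without day 6 replicate 2. It gave -0.059 to 0.43 for miR-101a and -0.39 to 0.16 for miR-101b against immature cells, -0.34 to 0.45 and -0.60 to 0.57 against day 0, -0.33 to -0.18 for the miR-26 ratio (exact permutation p = 0.0476 without day 6 replicate 3, the smallest that 21 splits can give) and 0.075 to 0.35 for the miR-101 ratio. The dimmer probe and normexp without day 0 replicate 1 were added after the data were seen. Samples of the same replicate number did not deviate together (r from -0.71 to 0.32 over 7 pairs), and with a replicate block the fold of miR-26a against immature cells was -0.47 (limma adjusted p = 0.538), with 0 members called. The slide as a block and the value table were not run, since there was 1 slide and the values were the same.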
